A study of Rattus norvegicus with 16 samples.

Results

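The neurotrophin pathway of the rat hippocampus was followed through 8 genes, namely the ligands Bdnf, Ntf3 and Gdnf, the receptors Ntrk2, Ntrk3 and Ngfr, and the transcription factors Creb1 and Crem. Every non-control probe whose gene name on the array equals one of these was taken, which gave 16 of the 30367 probes and at least 1 probe for each of the 8 genes. Whole hippocampi of Sprague-Dawley rats (males, per the study's methods) were profiled on 16 single-colour Agilent arrays, each taken here as 1 rat. The groups were Naive (3 rats, no surgery and no drug), Sham (2 rats, anesthetized and prepared for injury but not injured), TBI (3 rats, severe fluid-percussion traumatic brain injury), and 3 groups that had the same injury and then a drug. These were TBI+JM6 (3 rats, JM6 at 400 mg/kg by oral gavage), TBI+PMI (3 rats, PMI-006 at 250 mg/kg by oral gavage) and TBI+E33 (2 rats, an estradiol injection of 33 ug/kg). Tissue was taken 24 h after injury or its equivalent. The injury, a fluid pulse onto the dura to one side of the midline, was given to all 4 groups whose name holds TBI, and no array analysed here is of an injured rat given vehicle.

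Neurotrophins are secreted growth factors that keep neurons alive and strengthen their synapses. BDNF binds the receptor tyrosine kinase TrkB, encoded by Ntrk2, and neurotrophin 3 binds TrkC, encoded by Ntrk3. The low-affinity receptor encoded by Ngfr binds all neurotrophins and their precursors, and GDNF, a member of a separate ligand family, signals through Ret together with a GFR-alpha co-receptor. Trk and calcium signals lead to phosphorylation of CREB, the product of Creb1, which activates Bdnf and a set of immediate early genes. Crem encodes related factors, among them the inducible repressor ICER, which is made from an internal promoter and damps the same targets. In the hippocampus Bdnf and TrkB are known for their part in memory and in the response to seizures, injury and antidepressants, and the study set out to compare injured rats with and without candidate neuroprotective drugs.

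Signals are given as log2 of the processed intensity minus log2 of its array's 75th percentile, taken over probes well above background, so that a value of 0 is a bright probe. The Naive, Sham and TBI arrays were scanned in one session and the 3 drug groups in another, so drug and session cannot be told apart in any comparison of a drug group with TBI. The arrays of the first session had 16274 to 18239 probes well above background and those of the second 20256 to 24979. TBI+PMI 1 and TBI+JM6 3 stood apart from the other arrays in activity-regulated genes, as described with Bdnf below, and the calls against TBI and the counts between drugs are given with and without both. Markers of neurons, hippocampal fields, astrocytes, oligodendrocytes and microglia were on the arrays of every group, with 45 of the 58 marker genes on the array above background on all 16 arrays, although Prox1, a marker of dentate granule cells, was above background on no Sham and no TBI array. Markers of the choroid plexus, which lies against the hippocampus, summed to between 0.191 and 153 times the 75th percentile over single arrays, and leukocyte markers to 1.64 to 7.48 in TBI and 6.80 to 14.5 in the drug groups, and their part in the results was not tested. In bulk tissue fewer cells of a type and less RNA per cell cannot be told apart. Of the 16 probes, 9 were well above background on all 16 arrays and 15 passed the filter for testing, which asks for all arrays of at least 1 group to be above background.

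**Figure D1:**
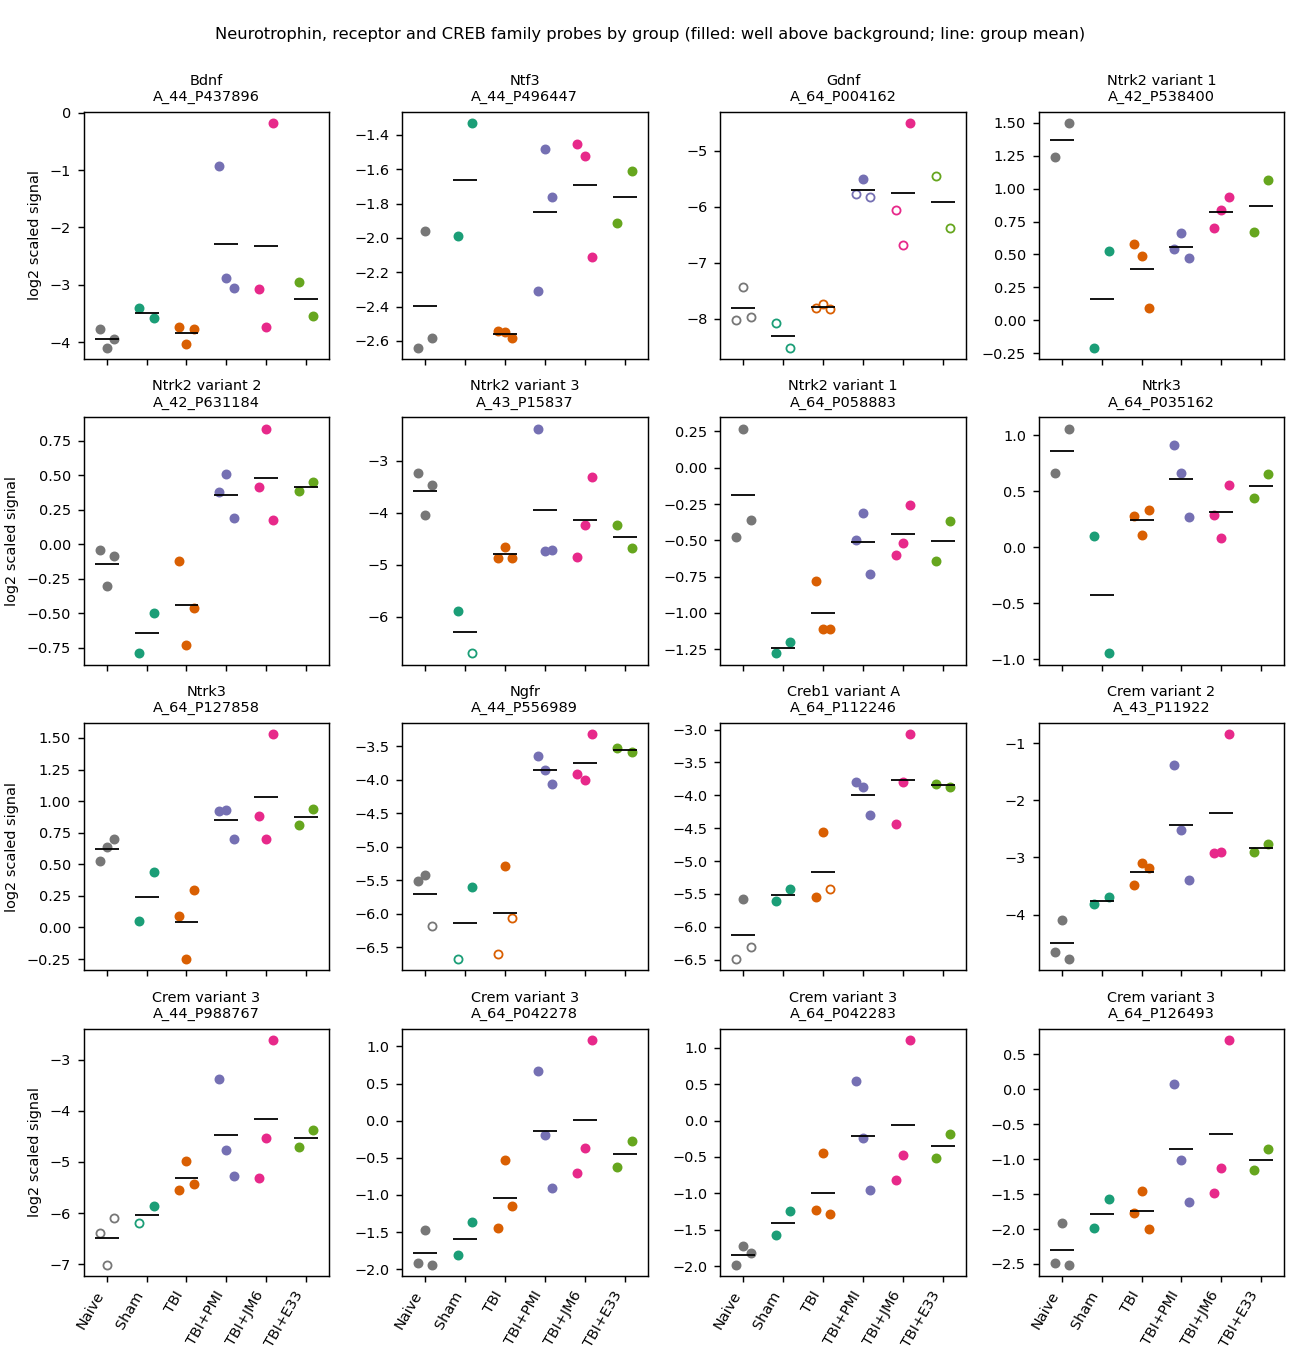
Log2 scaled signal (vertical axis, 1 panel per probe with its own range) of the 16 probes by group, where each point is 1 array, filled if well above background, and the line is the group mean. Gdnf is at background on all Naive, Sham and TBI arrays, while the Bdnf and Crem panels each hold 1 TBI+PMI and 1 TBI+JM6 array far above the rest.

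A pair of receptor genes carried the changes seen among the untreated groups. TrkB message was lower in Sham than in Naive hippocampus by 3 of its 4 probes and lower in TBI than in Naive by 2, and TrkC message was lower in Sham than in Naive by 1 of its 2 probes. The ligands and transcription factors passed the test in none of the comparisons without drugs, where the spread of each probe was taken over all 6 groups. The gene Ntrk2 is read by 4 probes on 3 annotated transcript variants. The first pair, A_42_P538400 and A_64_P058883, lie about 1 kb apart on the transcript that the array's annotation calls variant 1, at chr17:11495183-11495242 and chr17:11496095-11496154 on the minus strand of rn4. A_42_P631184 (variant 2, chr17:11680049-11680108) and A_43_P15837 (variant 3, chr17:11734704-11734763) lie 185 and 240 kb upstream of them. TrkB is known to be made as a full-length kinase and as shorter forms without the kinase domain. Of the variant 1 probes, the one in coding sequence near the end of the reading frame is shown, since it is the one measured on all 16 arrays, together with the coding probe of Ntrk3 (chr1:134081453-134081512, minus strand), which lies 156 kb upstream of the other Ntrk3 probe.
Ntrk2 A_64_P058883: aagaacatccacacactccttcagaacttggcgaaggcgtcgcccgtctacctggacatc
Ntrk3 A_64_P127858: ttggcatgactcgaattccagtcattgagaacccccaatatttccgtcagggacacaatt

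On the Ntrk2 variant 1 coding probe A_64_P058883 the Naive arrays read -0.48, 0.27 and -0.36, the Sham arrays -1.28 and -1.20, and the TBI arrays -0.78, -1.11 and -1.11. All 5 Sham and TBI arrays were below all 3 Naive arrays. The level was 2.07-fold lower in Sham than in Naive (log2 -1.05, SE 0.23, limma adjusted p = 0.0182) and 1.75-fold lower in TBI than in Naive (log2 -0.81, SE 0.21, limma adjusted p = 0.0444). The second variant 1 probe, A_42_P538400, gave 1.24 and 1.5 on Naive 2 and Naive 3, -0.21 and 0.53 in Sham, and 0.58, 0.49 and 0.09 in TBI. Its spot on Naive 1 was marked as an outlier by the scanner software and left out of the fit. It was 2.30-fold lower in Sham (log2 -1.20, SE 0.26, limma adjusted p = 0.0191) and 1.98-fold lower in TBI (log2 -0.98, SE 0.24, limma adjusted p = 0.0396) than in Naive. Both variant 1 probes thus moved the same way, although they share a transcript and are not independent measures.

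The variant 3 probe A_43_P15837 was dimmer and showed the widest gap. It read -3.23, -4.05 and -3.47 in Naive, -5.90 and -6.71 in Sham, with Sham 2 not above background, and -4.88, -4.66 and -4.87 in TBI. The 3 groups did not overlap, with Sham lowest and TBI between. Sham was 6.60-fold below Naive (log2 -2.72, SE 0.62, limma adjusted p = 0.0206), while TBI against Naive (log2 -1.22, 95% confidence interval -2.42 to -0.02, limma adjusted p = 0.231) and TBI against Sham (log2 1.5, 95% confidence interval 0.16 to 2.84, limma adjusted p = 0.146) missed the threshold. The variant 2 probe A_42_P631184 was -0.14 ± 0.14 (SD, n = 3) in Naive, -0.65 ± 0.21 (SD, n = 2) in Sham and -0.44 ± 0.30 (SD, n = 3) in TBI, and passed in none of the 3 comparisons, with limma adjusted p from 0.197 to 0.587.

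TrkC was read by a pair of probes that lie 156 kb apart on the genome. The downstream probe A_64_P035162 (chr1:133925530-133925589, minus strand) read 0.66 and 1.06 on Naive 2 and Naive 3, 0.10 and -0.95 in Sham, and 0.28, 0.11 and 0.33 in TBI, again with no usable spot on Naive 1. Sham was 2.44-fold below Naive on it (log2 -1.29, SE 0.33, limma adjusted p = 0.0340). TBI also lay below Naive on every array, by log2 -0.62 with a 95% confidence interval of -1.27 to 0.03 (limma adjusted p = 0.263). On the coding probe A_64_P127858 the Naive arrays read 0.53, 0.64 and 0.70, the Sham arrays 0.05 and 0.44, and the TBI arrays 0.09, -0.25 and 0.30. Neither difference from Naive passed on this probe, with log2 -0.37 in Sham (95% confidence interval -0.90 to 0.16, limma adjusted p = 0.408) and log2 -0.57 in TBI (-1.05 to -0.10, limma adjusted p = 0.152).

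**Figure D2:**
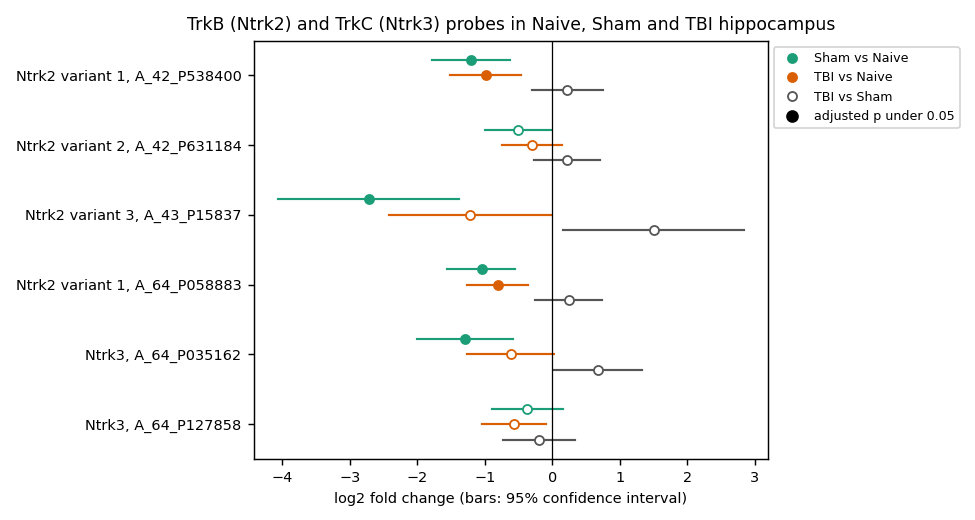
Log2 fold changes (horizontal axis) of the 4 Ntrk2 and 2 Ntrk3 probes in Sham against Naive, TBI against Naive and TBI against Sham, with bars for the 95% confidence interval and filled points for a limma adjusted p below 0.05. All 12 estimates against Naive lie below 0, and the interval of TBI against Sham is to the right of 0 for 2 probes.

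Counted over the 15 tested probes, 4 were called lower and 0 higher in Sham against Naive, where 1.51% of all tested probes were called lower (8.07% in either direction). In TBI against Naive 2 were called lower and 0 higher, with 1.73% of all probes called lower and 4.71% called in all. In TBI against Sham limma called 0 of the 15, against 9.38% of all probes. At an unadjusted p under 0.05 limma passed 3, where the share of all probes is at least 9.38%. The methods' t-test at its own threshold passed 3, against 13.5% of all probes. After quantile normalization the counts were 0 in TBI against Sham (7.98% of all probes), 2 lower in TBI against Naive (5.55%) and 3 lower in Sham against Naive (5.76%), where A_43_P15837 was lost at a limma adjusted p of 0.0562. Sham and Naive shared slide 1, with 2 arrays each. Within it the differences were -1.14 for A_64_P058883 and -2.67 for A_43_P15837. They were -1.07 for A_42_P538400 and -1.09 for A_64_P035162, where Naive 2 was the only Naive array of the slide with a value. TBI and Naive shared slide 2, which holds 1 Naive array, and there the 2 variant 1 probes differed by -0.64 and -1.11. TBI and Sham shared no slide. With slide as a fixed block none of these 6 calls was kept (limma adjusted p from 0.095 to 0.709). Every one of the 6 also lost its call when at least 2 single arrays were left out in turn, 5 of 6 arrays for each TBI call.

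Marker signals of cell types also varied between these groups, with few single markers called outside the oligodendrocyte list. The shares of all tested probes called were 9.38% in TBI against Sham, 4.71% in TBI against Naive and 8.07% in Sham against Naive. Oligodendrocyte markers had a median log2 change of -0.90 in TBI against Sham with 4 of 8 called lower, and 0 of 8 called against Naive. Astrocyte markers summed to 92.5 to 118 in Naive, 89.7 to 112 in Sham and 72.3 to 85.0 in TBI, on the scale on which the 75th percentile is 1, with 8 of 8 above background in each. Of these 8, 0 were called in TBI against Sham, 1 higher and 1 lower in TBI against Naive, and 1 higher in Sham against Naive. Neuron markers summed to 23.0 to 29.3 in Naive, 33.8 to 39.4 in Sham and 21.7 to 28.7 in TBI. Of 7 tested, 1 was called lower in TBI against Sham, 0 in TBI against Naive and 1 higher in Sham against Naive. The neuron sum was thus highest in Sham, where all 4 Ntrk2 probes had their lowest mean of the 3 groups, and the part of cell composition in these results was not tested.

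The genes of the GDNF receptor, Gfra1 and Ret, were higher in TBI than in Sham and Naive, while the ligand itself could not be tested. Gdnf (A_64_P004162, chr2:57423957-57424016, rn4) was not well above background on any of the 8 Naive, Sham and TBI arrays, where it read -8.52 to -7.44. In the drug groups it was above background on TBI+PMI 2 (-5.50) and TBI+JM6 3 (-4.50) alone and was therefore not tested. Gfra1, the GDNF co-receptor, read -4.37, -4.20 and -4.18 in Naive, -4.03 and -3.66 in Sham, and -2.92, -2.55 and -2.64 in TBI, so that every TBI array lay above every Naive and Sham array. It was higher in TBI than in Sham (log2 1.14, SE 0.23, limma adjusted p = 0.0138) and than in Naive (log2 1.55, SE 0.21, limma adjusted p = 0.00364). Ret, the signalling kinase of the complex, read -6.05, -3.73 and -4.70 in Naive, with the first not above background, -4.78 and -4.03 in Sham, and -2.70, -2.06 and -2.20 in TBI. It rose by log2 2.08 against Sham (SE 0.56, limma adjusted p = 0.0377) and by log2 2.50 against Naive (SE 0.50, limma adjusted p = 0.0184). When arrays were left out in turn, the call of Ret was lost for 4 of 5 arrays against Sham and 3 of 6 against Naive, and that of Gfra1 for 2 of 5 against Sham and 0 of 6 against Naive. With slide as a fixed block the estimates were 1.04 and 1.48 for Gfra1 and 1.90 and 2.38 for Ret, and none passed the test (limma adjusted p from 0.193 to 0.814). Leukocyte markers rose with the same comparison, 4 of the 6 tested being called higher in TBI against Naive, and summed to 0.688 to 0.957 in Naive, 1.22 to 1.65 in Sham and 1.64 to 7.48 in TBI, with Mpo at background in all 3 groups. Their part in the Gfra1 and Ret results was not tested.

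**Figure D3:**
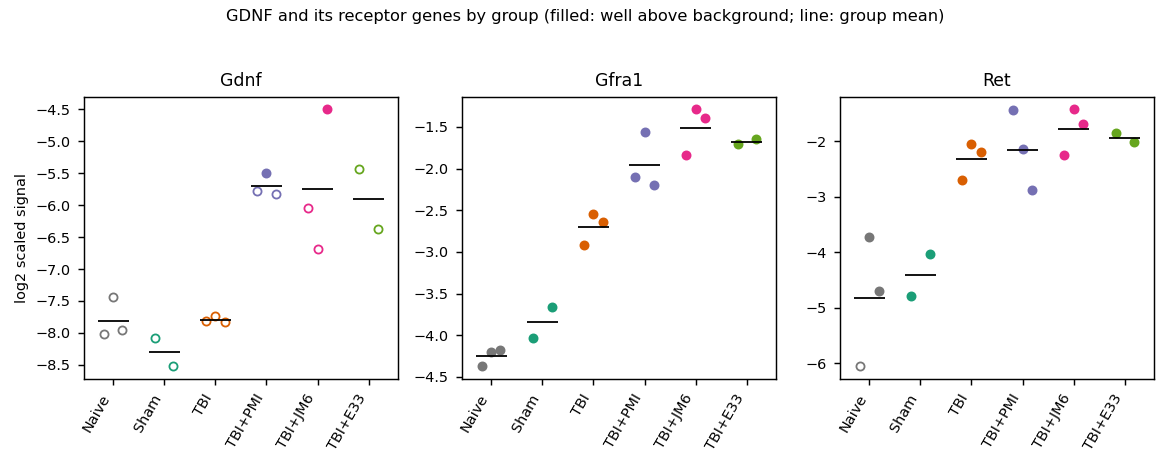
Log2 scaled signal (vertical axis) of Gdnf, Gfra1 and Ret by group, where each point is 1 array, filled if well above background, and the line is the group mean. The TBI arrays lie above all Naive and Sham arrays for Gfra1 and Ret, and all 8 Gdnf points of the first scanning session are open.

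The remaining ligands and the transcription factors gave no call among the untreated groups. Bdnf is read by A_44_P437896, spotted 10 times on each array and placed on an unassigned stretch of chromosome 3 (chr3_random:979381-979440, rn4). It read -3.78, -4.10 and -3.94 in Naive, -3.41 and -3.58 in Sham, and -3.74, -4.03 and -3.77 in TBI. The TBI and Naive arrays overlapped, and the difference was log2 0.10 with a 95% confidence interval of -1.50 to 1.70 (limma adjusted p = 0.962). Against Sham it was log2 -0.35 with an interval of -2.14 to 1.44 (limma adjusted p = 0.824), the fit taking 1 spread per probe over all 6 groups. The SD of Bdnf was 0.16 in Naive, 0.12 in Sham and 0.16 in TBI, against 1.18 in TBI+PMI and 1.89 in TBI+JM6. The width of these intervals is therefore not that of the untreated arrays alone. Ntf3 (A_44_P496447, chr4:162436573-162436632) read -2.64, -1.96 and -2.58 in Naive, -1.99 and -1.33 in Sham, and -2.54, -2.55 and -2.58 in TBI. It was 1.86-fold lower in TBI than in Sham with no overlap of arrays, at a limma adjusted p of 0.0809. Ngfr (A_44_P556989, chr10:84263082-84263141, 10 spots) was near background, with 2 of 3 Naive, 1 of 2 Sham and 1 of 3 TBI arrays above it. Creb1 (A_64_P112246, chr9:63210434-63210493, a probe in coding sequence) was above background on 1 of 3 Naive, 2 of 2 Sham and 2 of 3 TBI arrays and read -6.12 ± 0.49 (SD, n = 3), -5.52 ± 0.12 (SD, n = 2) and -5.17 ± 0.54 (SD, n = 3). Its TBI arrays all lay above its Naive arrays (log2 0.95, 95% confidence interval 0.18 to 1.72, limma adjusted p = 0.146).

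Crem is read by 5 probes within 15 kb of chromosome 17, of which 2 end on a stop codon of the reading frame. The transcripts of this gene are known to end in either of a pair of alternative DNA-binding domains, and the 2 probes cover the last coding bases of one each. They are shown because each covers the coding end of an alternative domain, with the stop codon in capitals. The array's annotation places both on 1 transcript, variant 3. They are therefore not independent measures, and neither was shown to read 1 protein end alone.
Crem A_64_P126493: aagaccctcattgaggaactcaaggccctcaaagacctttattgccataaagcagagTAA
Crem A_64_P042283: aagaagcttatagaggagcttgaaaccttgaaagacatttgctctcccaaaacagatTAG
The first lies at chr17:62835959-62836018 and the second at chr17:62836355-62836414 on the plus strand of rn4. Probe A_64_P042283 read -1.98, -1.72 and -1.82 in Naive, -1.57 and -1.24 in Sham, and -1.23, -0.45 and -1.29 in TBI. The TBI arrays were all above the Naive arrays (log2 0.85, 95% confidence interval -0.15 to 1.85, limma adjusted p = 0.324), and overlapped Sham (log2 0.41, limma adjusted p = 0.649). Probe A_64_P126493 read -2.31 ± 0.34 (SD, n = 3), -1.78 ± 0.30 (SD, n = 2) and -1.74 ± 0.27 (SD, n = 3) in the same order. Of the others, A_43_P11922 moved furthest, from -4.50 ± 0.37 (SD, n = 3) in Naive through -3.76 ± 0.09 (SD, n = 2) in Sham to -3.25 ± 0.20 (SD, n = 3) in TBI, with no overlap between any of the groups and a limma adjusted p of 0.203 for TBI against Naive. A_44_P988767 was above background on 0 of 3 Naive, 1 of 2 Sham and 3 of 3 TBI arrays. Its TBI mean was at least 1.66-fold higher when the dimmest probes above background are taken as the Naive level (limma adjusted p = 0.281). The 95% confidence interval of the fitted difference, log2 -0.1 to 2.47, includes 0. A_64_P042278 read -1.78 ± 0.27 (SD, n = 3), -1.59 ± 0.31 (SD, n = 2) and -1.04 ± 0.47 (SD, n = 3). All 5 probes were thus higher on average in TBI than in Naive, and none passed the test. The spread used in it takes in the drug groups, where the SD of A_43_P11922 was 1.01 in TBI+PMI and 1.2 in TBI+JM6.

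Of the 8 genes, 5 have a promoter in the RefSeq table (GRCr8), and the cyclic AMP response element TGACGTCA, the site that CREB and Crem products are known to bind, was searched in the 250 bases before and 50 after each start, on both strands. It was found in 2 of 3 Crem promoters and in none of the 6 Bdnf, 3 Ntf3, 1 Gdnf and 2 Creb1 promoters, while 1.83% of all 33469 promoters hold it. The shorter TGACG, which the full element contains, was in all 3 Crem promoters, 1 of 6 Bdnf, 1 of 2 Creb1 and the 1 Gdnf promoter, against 21.2% of all. The 2 Crem promoters with the full element lie 693 bases apart. They are shown, with the element in capitals, because no other promoter searched among these genes holds it. No link between the element and the signals was tested. The 250 bases before each start are printed, at chr17:58984547-58984796 and chr17:58985240-58985489 (GRCr8, plus strand), with the element beginning 56 and 35 bases before the start. The second promoter holds it again 39 bases after the start, outside the bases printed.
Crem promoter 1: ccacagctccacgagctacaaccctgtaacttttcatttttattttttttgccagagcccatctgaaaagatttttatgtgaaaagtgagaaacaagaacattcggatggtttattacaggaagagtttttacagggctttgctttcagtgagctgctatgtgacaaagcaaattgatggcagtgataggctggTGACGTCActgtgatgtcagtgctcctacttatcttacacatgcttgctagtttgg
Crem promoter 2: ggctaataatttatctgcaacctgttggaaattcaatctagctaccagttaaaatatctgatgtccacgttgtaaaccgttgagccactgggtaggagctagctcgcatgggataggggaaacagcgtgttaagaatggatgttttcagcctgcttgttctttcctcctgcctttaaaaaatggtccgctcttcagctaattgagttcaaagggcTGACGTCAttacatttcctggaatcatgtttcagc

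In the drug groups all 15 tested probes read higher than in TBI on the methods' scale, as did most of the array. The median of all tested probes moved by log2 0.99 in TBI+JM6, 0.79 in TBI+PMI and 1.08 in TBI+E33 against TBI, and values are therefore read against that shift. The median of the 15 member probes was 0.99, 0.83 and 0.64 in the same order. Above the median of all probes lay 7, 10 and 2 of the 15, so that most members lagged the array in TBI+E33. Limma called 6 of 15 probes higher in TBI+JM6, where 69.9% of all tested probes were called higher and 70.1% in either direction, 5 in TBI+PMI, where both shares were 56.7%, and 5 in TBI+E33, where they were 70.2% and 70.3%. No member probe was called lower, as 0.175%, 0.0482% and 0.0920% of all probes were. The genes called in each of the 3 comparisons, which share the TBI arrays, were Ntf3, Ntrk2 (variant 2), Ntrk3 (coding probe), Ngfr and Creb1, and TBI+JM6 added the Ntrk2 coding probe A_64_P058883. After quantile normalization, which sets the median shift to between -0.01 and 0.00, limma called 0 of 15 in each of the 3 comparisons, against 27.2%, 19.2% and 20.4% of all probes. At an unadjusted p under 0.05 on the methods' scale the counts were 8, 6 and 5. At least 70.1%, 56.7% and 70.3% of all tested probes pass that threshold, since these shares passed after adjustment.

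Of the tested member probes, Ngfr had the largest fitted change. It read -6.61, -5.29 and -6.06 in TBI, with TBI 2 alone above background, -3.91, -4.01 and -3.32 in TBI+JM6, -3.64, -3.85 and -4.07 in TBI+PMI, and -3.52 and -3.59 in TBI+E33. Every drug-group array was above every TBI array, but the TBI level is close to background. Gdnf, at background in TBI and on most drug-group arrays, went from -7.79 ± 0.05 (SD, n = 3) in TBI to -5.70 ± 0.17 (SD, n = 3) for TBI+PMI, -5.74 ± 1.12 (SD, n = 3) for TBI+JM6 and -5.91 ± 0.67 (SD, n = 2) for TBI+E33, so that a probe at background differed by a like amount. For Ngfr the log2 changes against TBI were 2.24 in TBI+JM6 (SE 0.36, limma adjusted p = 0.000176), 2.13 in TBI+PMI (SE 0.36, limma adjusted p = 0.00039) and 2.43 in TBI+E33 (SE 0.40, limma adjusted p = 0.000245). Ngfr was also the one member probe called in all 3 comparisons when arrays were scaled to the 75th percentile of all probes (log2 1.45 to 1.60) or to the added E1A control spots (log2 1.61 to 1.75), but after quantile normalization the changes were 0.50, 0.62 and 0.51 with limma adjusted p from 0.103 to 0.219. Creb1 read -5.54, -4.55 and -5.43 in TBI and -4.44, -3.80 and -3.07 in TBI+JM6, -3.80, -3.88 and -4.30 in TBI+PMI, and -3.82 and -3.88 in TBI+E33. Its changes of log2 1.40, 1.18 and 1.32 (limma adjusted p = 0.00386, 0.0134 and 0.0105) turned to -0.17, -0.22 and -0.57 after quantile normalization, where limma adjusted p was 0.181 to 0.650.

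Ntf3 read -2.56 ± 0.02 (SD, n = 3) in TBI. The drug groups were higher, with -1.85 ± 0.42 (SD, n = 3) for TBI+PMI, -1.69 ± 0.36 (SD, n = 3) for TBI+JM6 and -1.76 ± 0.21 (SD, n = 2) for TBI+E33, with no overlap between TBI and any drug group. The changes of log2 0.87, 0.71 and 0.80 (limma adjusted p = 0.0127, 0.0396 and 0.0318) lay within 0.28 of the median of all probes, and after quantile normalization they were -0.07, -0.06 and -0.21. The Ntrk2 variant 2 probe A_42_P631184 read 0.48 ± 0.33 (SD, n = 3), 0.36 ± 0.16 (SD, n = 3) and 0.42 ± 0.04 (SD, n = 2) in TBI+JM6, TBI+PMI and TBI+E33 against -0.44 ± 0.30 (SD, n = 3) in TBI. The Ntrk3 coding probe A_64_P127858 read 1.04 ± 0.44 (SD, n = 3), 0.85 ± 0.13 (SD, n = 3) and 0.87 ± 0.09 (SD, n = 2) against 0.05 ± 0.28 (SD, n = 3). Their log2 changes were 0.80 to 0.99 on the methods' scale and 0.16 to 0.34 after quantile normalization. Without TBI+PMI 1 and TBI+JM6 3 the log2 changes in TBI+JM6 were 1.07 for Ntf3, 1.07 for Ntrk2 variant 2, 0.74 for Ntrk3, 2.02 for Ngfr and 1.05 for Creb1, and in TBI+PMI 0.94, 0.79, 0.77, 2.02 and 1.08, each still called. The Ntrk2 coding probe in TBI+JM6 then fell to 0.44 and lost its call (limma adjusted p = 0.137). The 2 Ntrk2 variant 1 probes stayed below the shift, at log2 0.17 to 0.54, and so did the downstream Ntrk3 probe, at 0.07 to 0.37.

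**Figure D4:**
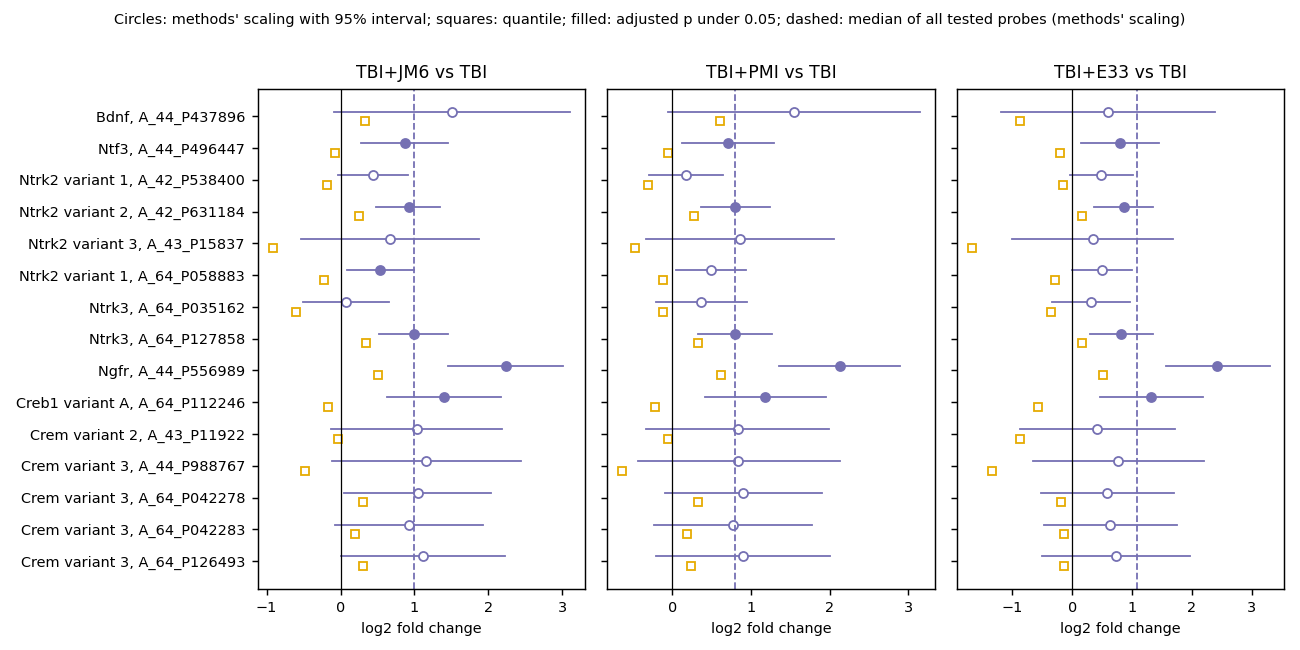
Log2 fold changes (horizontal axis) of the 15 tested probes in each drug group against TBI, as circles with 95% confidence intervals on the methods' scale and as squares after quantile normalization, filled where limma adjusted p is below 0.05. The dashed line is the median of all tested probes (0.99, 0.79 and 1.08), above which lie 7, 10 and 2 of the 15 circles, and all squares are open.

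Bdnf and Crem set 2 of the drug-group arrays apart. Bdnf read -0.93 on TBI+PMI 1 and -0.18 on TBI+JM6 3, and between -3.73 and -2.89 on the other 6 drug-group arrays. On the Crem probe A_64_P042283 the same 2 arrays read 0.55 and 1.11 against -0.96 to -0.19 on the other 6, and on A_64_P126493 they read 0.08 and 0.71 against -1.61 to -0.86. The pair was defined as the 2 highest arrays of Bdnf among the 8 of their session, so that Bdnf matches it by construction. After quantile normalization it was on top for 9 of the 16 member probes and 7.05% of the tested probes (7 of 16 and 9.27% on the methods' scale). Beside Bdnf these were all the Crem probes, which read 1 gene, the Ntrk2 probe A_43_P15837, Ngfr and Creb1. The other Ntrk2 probes did not have this pair on top. Ngfr led by little (6.31 and 6.26 against 6.16 on TBI+E33 1), and Ngfr and Creb1 dropped out on the methods' scale. After quantile normalization the same pair was on top for 12 of 15 CREB target genes, a list of immediate early and activity-regulated genes (10 on the methods' scale). Egr2, a zinc finger factor of this class, was above background on TBI+PMI 1 (-1.26) and TBI+JM6 3 (-0.29) and on no other array. Fos read 0.76 and 3.03 there and at most -1.52 on the other 14. Arc, whose product acts at synapses, read 3.05 and 4.57 there and at most 1.36 elsewhere, and Nr4a1 read 2.43 and 3.44 against at most -0.11. The pair was chosen for description after its values were seen, the arrays are of different drug groups and slides, and no test was made of it.

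**Figure D5:**
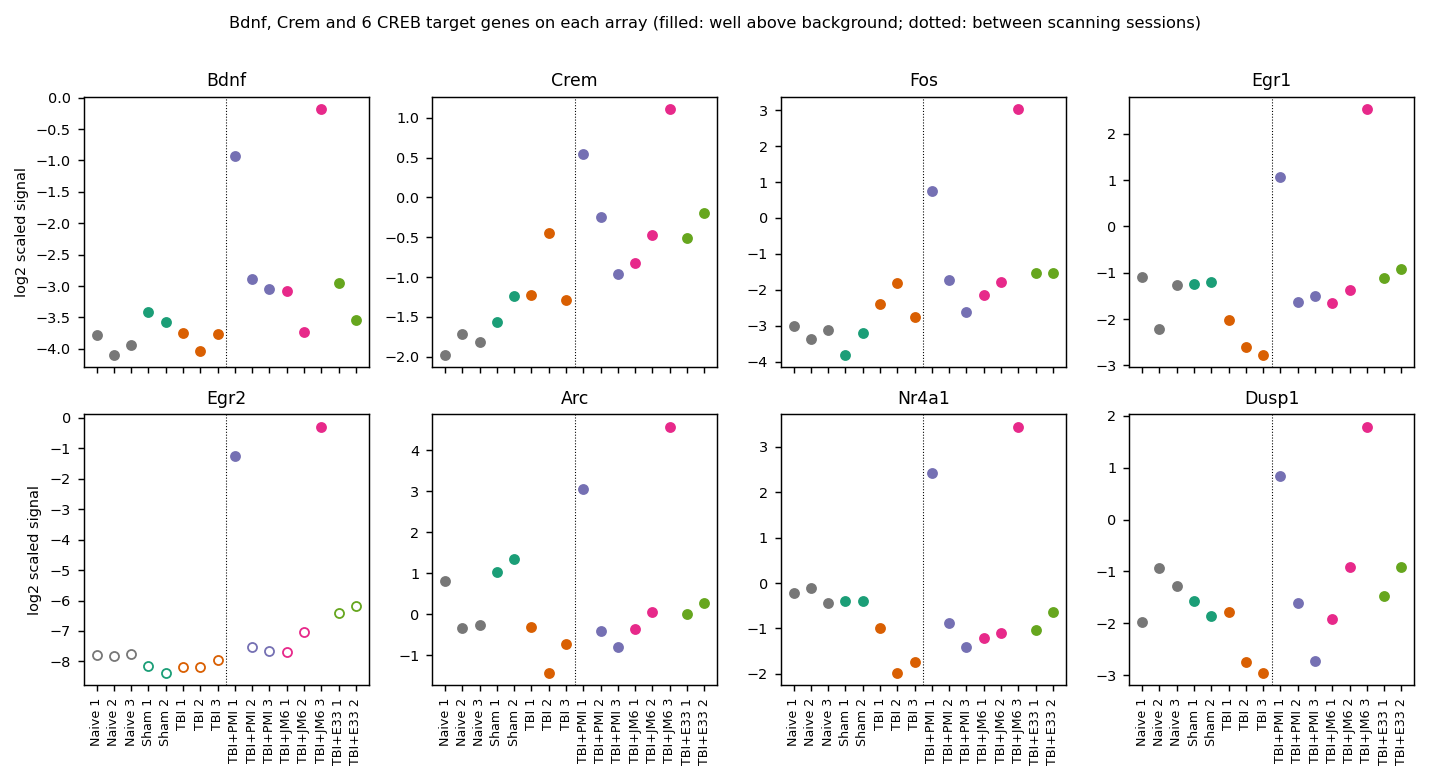
Log2 scaled signal (vertical axis) of Bdnf, Crem (A_64_P042283) and 6 CREB target genes on each of the 16 arrays, coloured by group, filled if well above background, with a dotted line between the scanning sessions. TBI+PMI 1 and TBI+JM6 3 are the 2 highest points in every panel.

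The group means of Bdnf rested on these arrays. Bdnf was log2 1.51 higher in TBI+JM6 than in TBI (95% confidence interval -0.09 to 3.11, limma adjusted p = 0.0827), log2 1.55 higher in TBI+PMI (interval -0.05 to 3.15, limma adjusted p = 0.088) and log2 0.60 higher in TBI+E33 (interval -1.19 to 2.39, limma adjusted p = 0.513). Without TBI+PMI 1 and TBI+JM6 3 the first fell to 0.44 (limma adjusted p = 0.135) and the second to 0.87, which then passed (limma adjusted p = 0.0123), where the median of all tested probes was 0.75 and 48.1% of them were called higher. The Crem probe A_64_P042283 went from log2 0.93 to 0.35 in TBI+JM6 and from 0.77 to 0.39 in TBI+PMI, and passed in neither setting (limma adjusted p = 0.0859 and then 0.322 in TBI+JM6, 0.164 and then 0.291 in TBI+PMI). The counts of member probes called higher without both arrays were 5 in TBI+JM6, against 58.0% of all tested probes, and 6 in TBI+PMI, against 48.1%.

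No member probe passed the test between the drugs. JM6, PMI-006 and estradiol were given at different doses and by different routes, so their values stand side by side. Over the 3 pairs of drug groups limma called 0 of 15 member probes. The shares of all tested probes called were 0.0131% for TBI+JM6 against TBI+PMI, 0.0175% for TBI+JM6 against TBI+E33 and 0.110% for TBI+PMI against TBI+E33. At an unadjusted p under 0.05 the member count was also 0, where the shares of all probes are at least as large. The methods' t-test at its own threshold passed 1 member probe in TBI+JM6 against TBI+PMI, against 6.81% of all tested probes. Without TBI+PMI 1 and TBI+JM6 3 limma again called 0 of 15 in each pair, and the values below are with both arrays. The intervals were narrowest for Ntrk2, where A_42_P631184 differed by log2 0.12 between TBI+JM6 and TBI+PMI (95% confidence interval -0.32 to 0.55), 0.06 between TBI+JM6 and TBI+E33 (-0.43 to 0.55) and -0.06 between TBI+PMI and TBI+E33 (-0.55 to 0.43). For Bdnf they ran from -1.64 to 1.56, from -0.88 to 2.70 and from -0.84 to 2.74, which leaves room for differences of several-fold.

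The wider pathway was read through 93 further genes in 6 lists, of which 80 were tested, each by its brightest probe. In TBI against Sham 2 rose and 4 fell, in TBI against Naive 2 rose and 1 fell, and in Sham against Naive 6 rose and 0 fell, where the shares of all tested probes called were 2.92% higher and 6.46% lower, 2.98% and 1.73%, and 6.55% and 1.51%. After quantile normalization the counts were 2 and 3, 2 and 2, and 1 and 1, and leaving out each array in turn gave 0 to 3 calls in Sham against Naive. Gfra1 and Ret were the 2 that rose with injury. Prkacb, a catalytic subunit of protein kinase A, read -2.95 and -2.68 in Sham against -3.66, -4.52 and -4.75 in TBI (log2 -1.50, limma adjusted p = 0.0188) and -4.53, -3.85 and -4.59 in Naive (log2 1.51 for Sham against Naive, limma adjusted p = 0.0172). It was thus higher in Sham than in both other groups without a drug. Shc2, an adaptor of Trk receptors (log2 -0.94, limma adjusted p = 0.0227), and Rtn4r, the Nogo receptor (log2 -0.89, limma adjusted p = 0.0472), also fell in TBI against Sham. Sorcs2, a sortilin-family receptor for neurotrophin precursors, was lower in TBI than in Naive (log2 -0.83, limma adjusted p = 0.0188). Hras, a small GTPase, was higher in Sham than in Naive (log2 0.81, limma adjusted p = 0.0394). Gab1, a docking protein, was above background on no Naive array, and its Sham mean was at least 2.42-fold higher, taking the dimmest probes above background as the Naive floor (limma adjusted p = 0.0348). After quantile normalization Rtn4r, Gab1 and Hras passed no longer (limma adjusted p = 0.11, 0.0819 and 0.0543), and the calls of Prkacb, Shc2, Rtn4r, Gab1 and Hras were each lost for 4 of 5 arrays left out, with that of Sorcs2 lost for 3 of 6. With slide as a fixed block 0 of the 80 passed in any of these 3 comparisons.

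By list, the 11 other ligands gave 0 calls in the 3 comparisons without drugs, as did the 5 tested genes of ligand processing, the 5 CREB family members and coactivators and the 14 CREB target genes. The 13 other receptors gave 2 higher and 1 lower in TBI against Sham and 2 higher and 1 lower in TBI against Naive, and the 32 adaptors and kinases 3 lower in TBI against Sham and 6 higher in Sham against Naive. Median log2 changes in TBI against Sham were -0.40 for the CREB target genes and -0.44 for the other ligands, with all probes at -0.03. With slide as a fixed block, since TBI and Sham shared no slide, these medians were -0.73 and -0.06.

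In the drug groups the pathway moved with the rest of the array, with 52 of 80 genes higher in TBI+JM6, 40 in TBI+PMI and 44 in TBI+E33 against TBI, medians of log2 0.96, 0.72 and 0.84, and 7, 5 and 4 higher after quantile normalization, where 13.9%, 9.96% and 10.4% of all tested probes were called higher. The counts lower after quantile normalization were 7, 9 and 6. Without TBI+PMI 1 and TBI+JM6 3 the first 2 counts were 37 and 34. Prkacb rose by log2 2.73 in TBI+JM6 (limma adjusted p = 1.22e-05), 2.27 in TBI+PMI (limma adjusted p = 7.59e-05) and 2.64 in TBI+E33 (limma adjusted p = 3.88e-05), and after quantile normalization by 1.62, 1.31 and 1.46, each still called, and without TBI+PMI 1 and TBI+JM6 3 it rose by 2.80 in TBI+JM6 and 2.35 in TBI+PMI. Ep300, a CREB coactivator, was the one gene of the 80 called lower in TBI+JM6 on the methods' scale (log2 -0.42, limma adjusted p = 0.0427). After quantile normalization it was at log2 -1.11 and still called lower (limma adjusted p = 0.00122). On the methods' scale without TBI+PMI 1 and TBI+JM6 3 its call was lost (limma adjusted p = 0.158). Gab1 was log2 2.29 higher in TBI+PMI (2.24 without TBI+PMI 1 and TBI+JM6 3) against a TBI level above background on 1 of 3 arrays. Ntf4, which encodes another TrkB ligand, had no TBI array above background, and its TBI+E33 mean was at least 2.97-fold higher by the same floor (limma adjusted p = 0.00699). After quantile normalization their changes were log2 0.82 and 0.32 with limma adjusted p of 0.205 and 0.715.

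The CREB target genes had the highest median of the 6 lists in the drug groups, log2 1.96, 1.28 and 1.31, with 9, 5 and 4 of 14 called higher, where 69.9%, 56.7% and 70.2% of all tested probes were. After quantile normalization 2, 0 and 1 were higher and 1, 1 and 1 lower. Without TBI+PMI 1 and TBI+JM6 3 the medians were 1.0 in TBI+JM6 and 0.62 in TBI+PMI, with 7 and 6 called higher against 58.0% and 48.1% of all probes. In TBI+PMI the list was then no longer highest, with the other receptors at 0.68 and the adaptors and kinases at 0.64.

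The genes whose signal followed each member most closely were found over the 16 arrays after quantile normalization and removal of each session's mean, among 7976 genes above background on all arrays, and the correlations are descriptions over arrays that share sessions and slides. Bdnf was followed by Tiparp (r = 0.95), Inhba (r = 0.95) and Rasl11a (r = 0.94), and Crem (A_64_P042283) by Fbl (r = 0.94), Gadd45g (r = 0.91) and Ifrd1 (r = 0.91). In both, TBI+PMI 1 and TBI+JM6 3 are the highest arrays of the member itself. Ntf3 was closest to Rbak (r = 0.91), Rnf215 (r = 0.89) and Ift80 (r = 0.85), and Ntrk3 (A_64_P127858) to Paqr3 (r = 0.89), Eml4 (r = 0.88) and Bzw2 (r = 0.88). Ntrk2, by its variant 2 probe, had lower values, with Pnpla7 (r = 0.81), Csgalnact1 (r = 0.80) and Slc1a3, the glial glutamate transporter (r = 0.80). With the methods' scaling in place of quantile the first-named gene kept rank 1 for Ntf3 and Crem and fell to rank 3, 11 and 2 for Bdnf, Ntrk2 and Ntrk3.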

How the data were processed

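Gene expression was measured in 16 rat hippocampi. The authors scanned the arrays and extracted them with Agilent Feature Extraction 9.5.3.1, and the deposited scanner files hold the processed intensity of each spot, with background subtracted. A deposited matrix holds the authors' own normalized ratio per probe, used here only as an alternative. RNA was amplified before labelling by 1 of 2 kits, and which kit served which rat is not given in the sources used here. For this work spots of a probe were averaged, outlier-flagged spots left out, and log2 intensity set against the 75th percentile of probes well above background on the array, after the methods. A probe entered the test if some group had it above background on each of its arrays (22821 of 30367 did), in 1 limma 3.58.1 fit (R 4.3.3, 16 arrays, 10 residual degrees of freedom), and a call needed an adjusted p (Benjamini-Hochberg, over all tested probes) under 0.05. The fit was tested on simulated data. Groups hold 2 or 3 arrays, which limits precision, and p-values measure the spread between these arrays. The methods name 3 rats per group, and 2 Sham and 2 TBI+E33 arrays were analysed here. Microarray signals give no counts, so no counting intervals apply. The members and gene lists were chosen with earlier results of these data known. Named pathway genes are, in each comparison, up to 3 called genes with the largest rise and 3 with the largest fall whose arrays do not overlap. Some genes that meet this rule are not reported here. Alternatives covered background correction, scaling, filters, the methods' t-test, slide and replicate blocks, probe GC content and each array left out.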

Additional observations from a re-analysis of the deposited data

How the results depend on the processing

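Groups of 2 and 3 arrays and single slides set the limits. Calls are given over the 15 member probes, then over the 80 pathway genes. With normexp background correction the member calls were 0 in TBI against Naive, 0 in Sham against Naive, and 3, 1 and 2 in TBI+JM6, TBI+PMI and TBI+E33 against TBI, and the pathway calls 0, 0 and 0 in TBI against Sham, TBI against Naive and Sham against Naive, and 18, 7 and 13 in the drug groups. Quantile normalization left 0, 0 and 0 member calls in the drug groups and 14, 14 and 10 pathway calls, with 2 in Sham against Naive. The authors' matrix gave 0, 0 and 0, and 14, 12 and 12, with 3 in Sham against Naive. The 75th percentile over all probes gave 1, 1 and 1, and 22, 18 and 18, with 5 pathway calls in TBI against Naive. Scaling to the E1A control spots gave 1, 1 and 1, and 16, 4 and 8, with 0 member calls in TBI against Naive, 1 in Sham against Naive, and 0 pathway calls in TBI against Sham and Sham against Naive. With no filter on dim probes TBI against Naive had 0 member calls and Sham against Naive 1 pathway call. With only probes above background on all 16 arrays kept, 9 member probes were tested in place of 15. They gave 1, 1 and 1 calls in TBI against Sham, TBI against Naive and Sham against Naive, and 3 and 3 in TBI+PMI and TBI+E33. The methods' t-test, unadjusted with its fold limit, gave 3 member calls in TBI against Sham, 8 in TBI against Naive and 1 in TBI+JM6 against TBI+PMI, and pathway counts of 12, 16 and 13 in the untreated comparisons, 3 in TBI+JM6 against TBI+PMI and 7 in TBI+PMI against TBI+E33. After adjustment it gave 0 and 0 member calls in TBI against Naive and Sham against Naive, 3 and 2 in TBI+PMI and TBI+E33, and pathway counts of 0, 0 and 0, then 31 in TBI+JM6 and 24 in TBI+PMI. The compared groups fitted alone gave 0 and 1 member calls in TBI against Naive and Sham against Naive and 0, 0 and 0 pathway calls. Slide as a random block gave 1 member and 12 pathway calls in TBI against Sham and 1 pathway call in TBI+PMI against TBI+E33, and slide as a fixed block 0 member and 0 pathway calls in the untreated comparisons; it could not be fitted for a drug group against TBI. With the probe GC trend removed TBI against Naive had 1 member call.

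The share of all tested probes called moved with these settings, so the counts are no result about the members alone. In TBI against Sham, TBI against Naive and Sham against Naive it was 0.0175%, 0.175% and 0.0615% with normexp, 1.54%, 3.48% and 1.56% by E1A spots, 4.60%, 2.21% and 4.18% with no filter, 15.4%, 8.81% and 12.7% over probes above background on all 16 arrays, 0.0439%, 0.0658% and 1.33% for groups fitted alone, 16.8%, 7.02% and 8.26% with slide as a random block and 0.136%, 0.189% and 0.0659% as a fixed block, and 13.5%, 13.9% and 16% by the unadjusted t-test. In TBI+JM6, TBI+PMI and TBI+E33 it was 21.5%, 6.31% and 14.0% with normexp, 27.2%, 19.2% and 20.4% by quantile, 27.0%, 19.0% and 20.6% by the matrix, 43.8%, 35.8% and 40.4% over all probes, 28.4%, 17.6% and 23.0% by E1A spots, and 52.0%, 35.6% and 44.0% by the adjusted t-test. Over probes above background on all 16 arrays it was 50.4% in TBI+PMI and 65.1% in TBI+E33. By the unadjusted t-test it was 6.81% in TBI+JM6 against TBI+PMI and 14.9% in TBI+PMI against TBI+E33. By the matrix it was 6.45% in Sham against Naive, and with the 75th percentile over all probes 8.1% in TBI against Naive.

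The replicate block left 1 member call in TBI against Naive and 3 pathway calls in Sham against Naive, and moved no other count by over 1.5 times. Deviations of same-numbered arrays correlated by -0.19 to 0.21, so that the numbers were not taken to pair the rats.

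Leaving out each array in turn, member calls ranged from 0 to 0 in TBI against Sham, 0 to 2 in TBI against Naive (0 without any array but TBI 1), 1 to 3 in Sham against Naive (1 without Naive 3, Sham 1 or Sham 2), 5 to 10 in TBI+JM6 (10 without TBI+JM6 1), 3 to 6 in TBI+PMI (3 without TBI 3) and 3 to 4 in TBI+E33 (3 without TBI+E33 1 or TBI+E33 2), and were 0 between drugs. Pathway calls ranged from 0 to 12, 1 to 4, 0 to 3, 34 to 56, 25 to 42 and 25 to 44 in the same order, and 0 to 1 in TBI+JM6 against TBI+PMI. The extremes were set by TBI 1 in TBI against Sham (12), where leaving out Sham 1 or TBI 3 gave 0, by Sham 1 and Sham 2 in Sham against Naive (0), by TBI+JM6 3 in TBI+JM6 (34), by TBI+PMI 2 in TBI+PMI (25) and by TBI+E33 2 in TBI+E33 (25). Leaving out TBI+PMI 1 and TBI+JM6 3 together was chosen after seeing the data.

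Among single log2 changes, those of the drug groups turned below 0 in places and then passed no test. Ntf3 was -0.07 in TBI+JM6 by quantile and by the matrix, -0.06 and -0.04 in TBI+PMI, and -0.21 and -0.20 in TBI+E33, with -0.03 on the scale of all probes. Creb1 was -0.17 and -0.13, -0.22 and -0.16, and -0.57 and -0.49. The Ntrk2 coding probe in TBI+JM6 was -0.22, -0.21 and, over all probes, -0.25, and the Ntrk3 coding probe in TBI+E33 -0.01 over all probes. In TBI+E33, Bdnf was -0.88 by quantile, -0.72 by the matrix, -0.23 over all probes and -0.08 by E1A spots, and Crem -0.13, -0.12, -0.19 and -0.03. Bdnf turned to 0.19 with normexp in TBI against Sham, and in TBI against Naive to -0.03 by quantile and 0.00 by the matrix. The cause of these changes was not tested. In TBI+JM6, TBI+PMI and TBI+E33 against TBI the median of all tested probes was 0.99, 0.79 and 1.08 on the methods' scale. It was 0, -0.01 and 0 by quantile and 0.49, 0.27 and 0.4 by E1A spots. Prkacb in the drug groups kept its call under every alternative run.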
